A study of Rattus norvegicus with 9 samples.

Results

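Transcript levels of 10 marker genes of contractile smooth muscle and of mural cells, the cells that wrap blood vessels, were followed in rat knee synovium and in regenerating meniscal tissue. The genes were taken by their symbols from the deposited table of 17602 genes: Acta2, Tagln, Myh11, Cnn1 and Des encode parts of the contractile machinery or its scaffold, and Rgs5, Pdgfrb, Notch3, Cspg4 and Mcam are used as markers of pericytes and other mural cells. In that order, their gene identifiers in the table were 81633, 25123, 24582, 65204 and 64362, and 54294, 24629, 56761, 81651 and 78967. All 10 were present and all 10 passed the filter on low values, which 16512 genes passed. All animals were wild-type (WT) male Lewis rats, 10 to 12 weeks of age, and carried no transgene. The intact group was synovium, the lining tissue of the joint, from around the medial meniscus of knees without surgery. Sham rats had the joint capsule opened and closed, and synovium from around the medial meniscus was taken 1 week later. In the pMx group the anterior part of the medial meniscus was cut out (partial medial meniscectomy, pMx), and the tissue growing back was taken 1 week later, with the adjoining synovium dissected away. Each group held 3 libraries. Surgery and sampled tissue both changed between sham and pMx, and their shares in a difference cannot be told apart. The labels call the libraries biological replicates without saying which animals or knees they came from, so p-values measure the spread between these libraries.

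Smooth muscle cells contract when myosin pulls on actin filaments, and their contractile genes are switched on together by serum response factor (SRF) and its partner myocardin, which act through a DNA element called the CArG box. Pericytes sit on capillaries, are recruited by platelet-derived growth factor through the receptor encoded by Pdgfrb, and receive Notch signals from the endothelium through Notch3. Acta2 is also the classical marker of myofibroblasts, the contractile fibroblasts of healing wounds, so its RNA in a repairing tissue can come from vessel walls and from myofibroblasts.

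Values are TPM, a transcript level scaled by transcript length and to a total of 1000000 in each library, so levels can be set side by side between genes. Since TPM holds no read counts, the depth is unknown and the precision is the spread between 3 libraries. The RNA integrity recorded with the samples was lowest in the intact group, higher in sham and highest in pMx, without overlap, so in these poly(A) libraries it cannot be told apart from the groups. Intact replicate 3 stood apart: the 20 skeletal muscle genes of a marker list summed to 57397 TPM there, against 88.4 and 324 TPM in the other intact libraries, 345 to 4008 TPM in sham libraries and 116 to 4092 TPM in the pMx group. Among the 10 genes, intact replicate 2 held the highest intact value for 8 and intact replicate 3 the lowest for 7. Prg4 encodes a joint lubricant that the synovial lining makes, and was named after its values were seen. It lay at 2099.95 to 2986.46 TPM in intact, 1244.64 to 1450.96 TPM in sham and 1084.36 to 1737.63 TPM in pMx libraries. Prg4 RNA was thus also present in the pMx libraries, and which cells made it there was not tested.

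In the regenerating tissue Acta2, Tagln, Myh11 and Cnn1 fell, Pdgfrb rose, and Des, Rgs5, Notch3, Cspg4 and Mcam did not pass the test against sham. The 5 contractile genes summed to 5399 ± 1473 TPM (SD, n = 3) in the intact group, 3225 ± 350 TPM in sham libraries and 1629 ± 53.2 TPM in the pMx group. The 5 mural genes summed to 1150 ± 166, 982 ± 51.2 and 1126 ± 75.6 TPM. Acta2 and Tagln made up most of the contractile sum and Rgs5 most of the mural sum, and the difference between these sums was not tested. In bulk tissue, fewer cells of a type and less RNA per cell cannot be told apart. The comparison of pMx with sham asks what sets the regenerating tissue apart from synovium after surgery alone. In it, 3 of the 10 genes (Acta2, Myh11 and Cnn1) were called lower, which takes an adjusted p below 0.05 together with a log2 fold change beyond 1 in size, a call that 8.21% of all tested genes met in either direction and 4.85% met as lower. At the adjusted p alone, 4 genes were lower and 1 (Pdgfrb) was higher, beside 18.9% and 17.7% of all tested genes. The median log2 fold change of the 10 genes was -0.04, beside -0.01 over all tested genes, and the 10 values ran from -2.85 to 0.85.

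**Figure D1:**
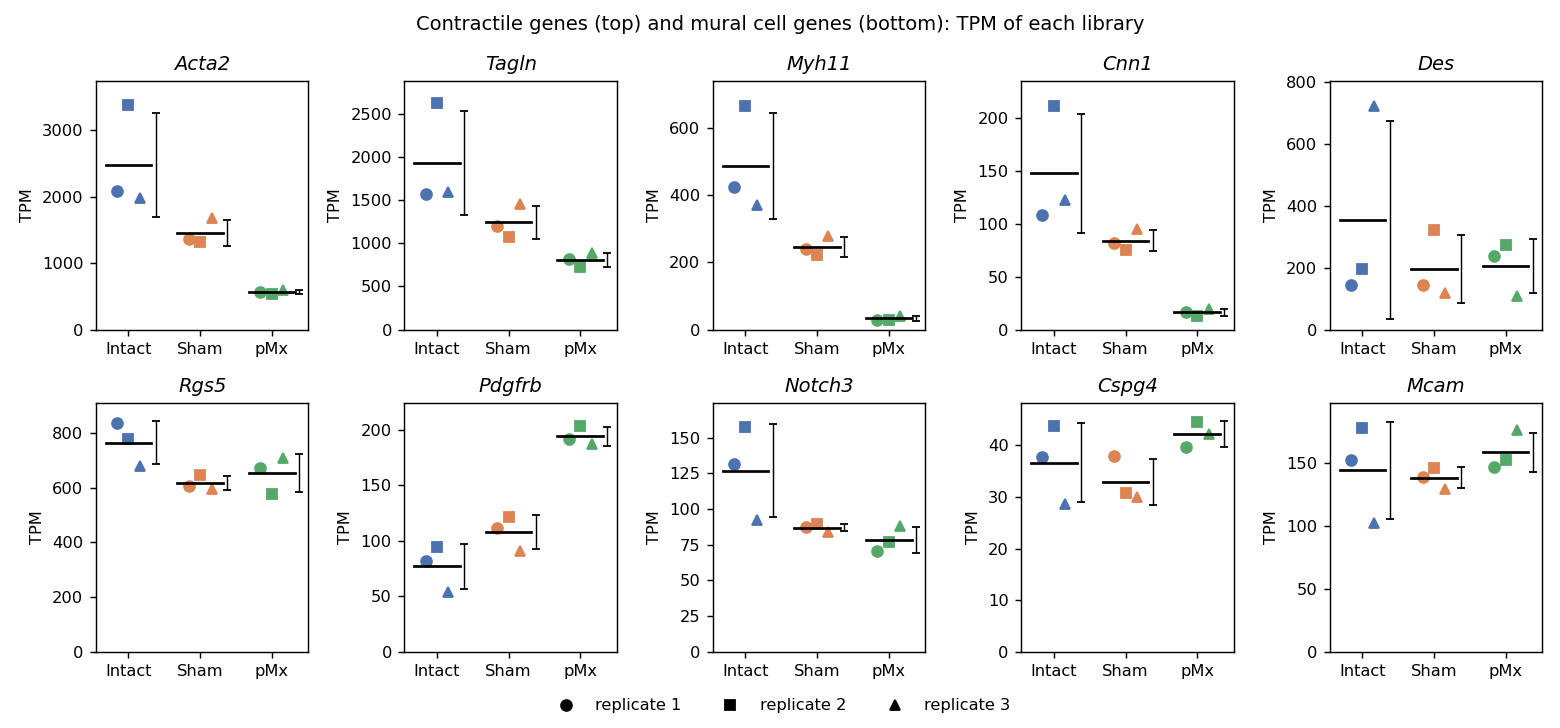
TPM (vertical axes, each from 0) of the 10 genes in the 9 libraries, with the intact, sham and pMx groups on the horizontal axes, marker shape giving the replicate, horizontal lines the mean and bars 1 SD. Myh11 and Cnn1 reached at most 41.15 and 19.66 TPM in the pMx group, Pdgfrb was highest in the pMx group, and Rgs5 stayed between 575.44 and 837.62 TPM throughout.

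Acta2 encodes smooth muscle alpha-actin, the actin of the contractile filament. It lay at 2081.08, 3385.12 and 1974.99 TPM in intact replicates 1, 2 and 3, at 1369.47, 1311.22 and 1683.04 TPM in the sham replicates and at 569.63, 530.21 and 593.6 TPM in the pMx replicates. Every pMx library was below every sham library, and every sham library below every intact library. Acta2 fell 2.58-fold from sham to pMx (log2 fold change -1.36, SE 0.20; limma, adjusted p = 0.00101). It nevertheless remained among the most abundant transcripts of the regenerating tissue, ranking 251 of 17602 genes by mean TPM against 62 in the intact group and 115 in the sham group.

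Tagln encodes transgelin (SM22), an actin-binding protein of smooth muscle that is also made by activated fibroblasts. It measured 1574, 2622.27 and 1593.48 TPM in the intact group, 1206.26, 1076.09 and 1454.5 TPM in sham libraries and 817.78, 722.96 and 883.3 TPM in the pMx group. The 3 groups did not overlap, and the step from sham to pMx was smaller than that of Acta2, at 1.54-fold (log2 fold change -0.62, SE 0.21; limma, adjusted p = 0.0447). That call was narrow: leaving out any sham or any pMx library raised the adjusted p to between 0.0502 and 0.147.

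Myh11 encodes the smooth muscle myosin heavy chain, the most specific marker of differentiated smooth muscle among the 10 genes. Its values were 423.16, 665.01 and 371.11 TPM in the intact group, 238.53, 221.2 and 278.1 TPM in sham libraries and 29.78, 29.33 and 41.15 TPM in the pMx group. The pMx libraries stood far below all others. Myh11 fell 7.36-fold from sham to pMx (log2 fold change -2.85, SE 0.22; limma, adjusted p = 5.20e-05), the largest change of the 10 genes, and its rank by mean TPM went from 545 to 3995.

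Cnn1 encodes calponin, which binds actin and damps the myosin motor. It lay at 108.7, 211.99 and 122.89 TPM in the intact group, at 81.67, 75.67 and 95.54 TPM in sham libraries and at 16.28, 12.96 and 19.66 TPM in pMx libraries. Again the groups did not overlap. Cnn1 fell 5.17-fold from sham to pMx (log2 fold change -2.31, SE 0.24; limma, adjusted p = 2.03e-04).

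Promoter sequences are shown for Acta2 and Cnn1, a pair of contractile genes that both fell, by 2.58-fold and 5.17-fold, and for Rgs5, a mural gene that did not pass the test. They are the 250 bases before the RefSeq transcript start, 5′ to 3′ on the gene's strand, in the build GRCr8, at chr1:241172504-241172753 (minus strand), chr8:28908187-28908436 (plus strand) and chr13:84380827-84381076 (plus strand). Capitals mark matches to the CArG box with 1 of its 6 core letters off.
Acta2: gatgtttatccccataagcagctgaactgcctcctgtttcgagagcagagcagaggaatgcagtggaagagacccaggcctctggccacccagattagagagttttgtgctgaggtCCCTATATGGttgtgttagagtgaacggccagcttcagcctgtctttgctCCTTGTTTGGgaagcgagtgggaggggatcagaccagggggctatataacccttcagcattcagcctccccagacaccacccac
Cnn1: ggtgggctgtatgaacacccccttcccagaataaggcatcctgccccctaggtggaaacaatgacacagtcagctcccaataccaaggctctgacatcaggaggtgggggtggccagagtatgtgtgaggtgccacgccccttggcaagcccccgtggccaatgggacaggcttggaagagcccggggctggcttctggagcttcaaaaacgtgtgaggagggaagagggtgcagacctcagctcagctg
Rgs5: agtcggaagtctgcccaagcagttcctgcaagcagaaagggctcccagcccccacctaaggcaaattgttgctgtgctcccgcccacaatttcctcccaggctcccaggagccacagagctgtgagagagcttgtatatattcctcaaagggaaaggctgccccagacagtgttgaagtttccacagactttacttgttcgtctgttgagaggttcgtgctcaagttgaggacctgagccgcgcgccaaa
Acta2 held 2 such near matches, CCCTATATGG with its left end at base -134 and CCTTGTTTGG with its left end at base -84 from the transcript start. No exact CArG box and no GTGGGAA, the letters bound by the Notch effector RBPJ, was found on either strand in the 6 windows that RefSeq gave for the 10 genes (Acta2, Cnn1, Rgs5, Des, Notch3 and Cspg4), while Tagln, Myh11, Pdgfrb and Mcam were not matched. The windows searched also held the 50 bases after the start, which are not shown. Among all 33469 such windows, 1.64% held an exact CArG box, 9.42% a box with at most 1 core letter off and 6.29% GTGGGAA. A match is a description of letters, and the looser CArG search was added after the sequences were seen.

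**Figure D2:**
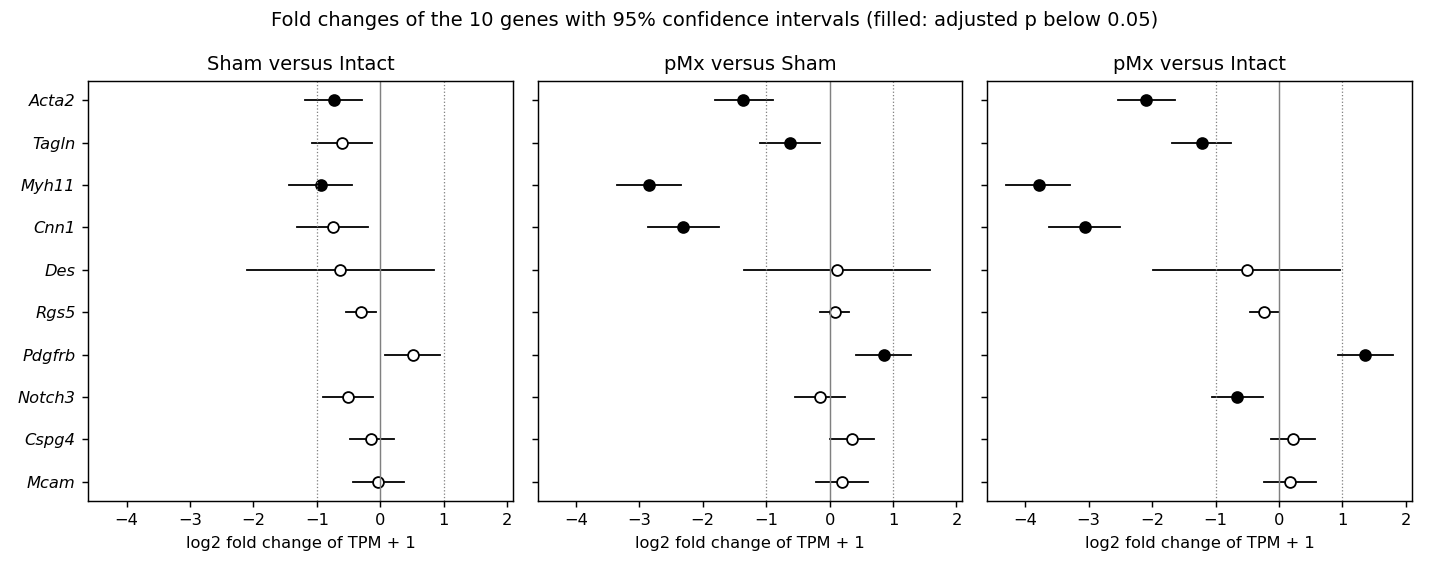
Log2 fold changes of TPM + 1 (horizontal axes) of the 10 genes with 95% confidence intervals for sham against intact, pMx against sham and pMx against intact; filled points have an adjusted p below 0.05 and dotted lines mark a log2 fold change of 1 in either direction. Myh11 and Cnn1 lie farthest to the left in both pMx comparisons, Pdgfrb lies to the right of 0 in all 3, and the interval of Des spans 0 in all 3.

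The contractile genes did not fall in step. In each library the ratio of Acta2 to Myh11 was taken, which does not depend on the total to which TPM is scaled. It was 4.92, 5.09 and 5.32 in the intact group, 5.74, 5.93 and 6.05 in the sham group and 19.1, 18.1 and 14.4 in the pMx group. The intact and sham libraries thus lay close together and all pMx libraries far above them, 2.89-fold above sham (log2 difference 1.53). The ratio of Tagln to Myh11 was 4.83-fold higher in pMx than in sham, and that of Cnn1 to Myh11 1.42-fold higher. For each of these 3 ratios all pMx libraries lay above all sham libraries. The two-sided exact permutation test gave p = 0.1 for each, the smallest that 3 libraries against 3 can give, and 0.142 after adjustment over the 27 ratio tests.

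The order of the 10 genes by mean level changed as well. In the intact group it ran from Acta2 (2480 TPM) through Tagln (1930), Rgs5 (766), Myh11 (486), Des (355), Cnn1 (148), Mcam (144), Notch3 (127) and Pdgfrb (76.8) to Cspg4 (36.6). Neighbours whose libraries did not overlap were Tagln and Rgs5, Rgs5 and Myh11, and Pdgfrb and Cspg4, and the ranges of the other neighbours overlapped. Within each intact library Acta2 still lay above Tagln, Mcam above Notch3 and Notch3 above Pdgfrb. In the pMx group the order was Tagln (808), Rgs5 (653), Acta2 (564), Des (206), Pdgfrb (194), Mcam (159), Notch3 (78.5), Cspg4 (42.2), Myh11 (33.4) and Cnn1 (16.3). There the neighbours that overlapped were Rgs5 and Acta2, Des and Pdgfrb, and Cspg4 and Myh11. Within each pMx library Rgs5 lay above Acta2 and Cspg4 above Myh11. The sham group kept the leading order of Acta2, Tagln, Rgs5 and Myh11 at 1455, 1246, 616 and 246 TPM. Among these 4, only Acta2 and Tagln overlapped, and Acta2 was the higher within each sham library.

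**Figure D3:**
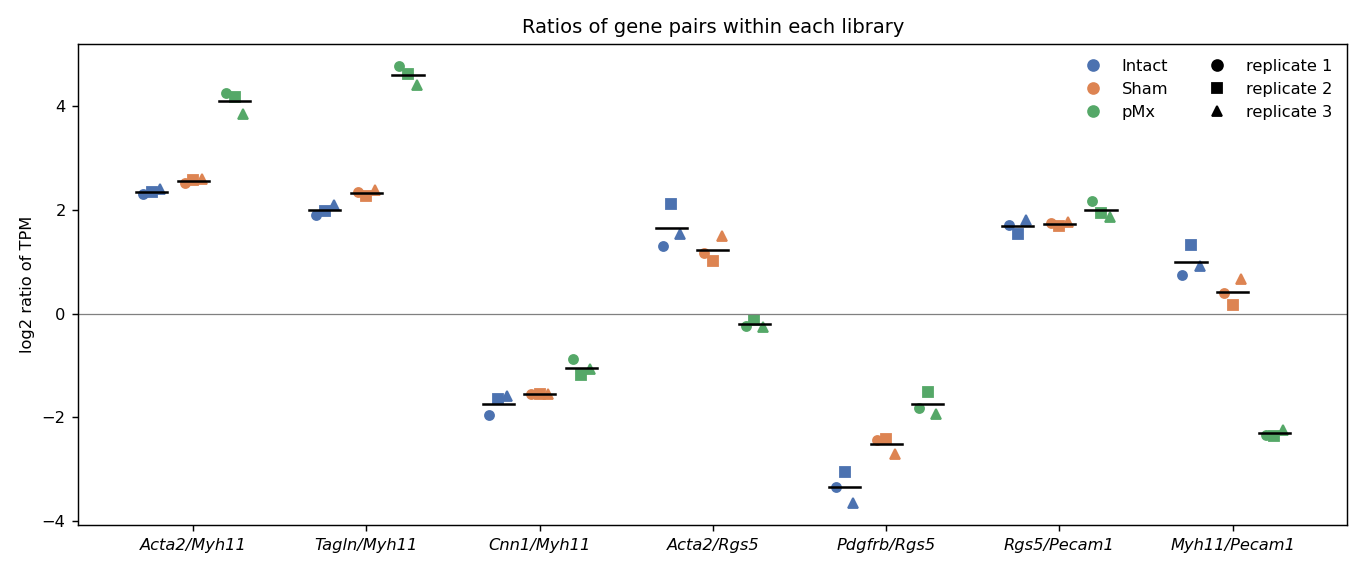
Log2 ratios of TPM for 7 gene pairs (horizontal axis) in each of the 9 libraries, coloured by group, with the replicate as marker shape and the group mean as a line. Acta2/Myh11 and Tagln/Myh11 are highest in the pMx libraries, Myh11/Pecam1 and Acta2/Rgs5 lowest there, and Rgs5/Pecam1 differs little between groups.

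A list of other contractile smooth muscle genes held 22 genes without the 10 markers. From sham to pMx, 11 fell and 2 rose at an adjusted p below 0.05, beside 18.9% and 17.7% of all tested genes. The other 9 did not pass, and the median log2 fold change was -0.81. Pln, which encodes phospholamban, the brake on the calcium pump, lay at 18.75, 21.84 and 28.46 TPM in sham libraries and at 1.97, 1.64 and 2.42 TPM in pMx libraries (log2 fold change -2.98, SE 0.23; limma, adjusted p = 5.51e-05). Synpo2, an actin-bundling protein, fell by 2.64 on the log2 scale, and Lmod1, which seeds actin filaments in smooth muscle, fell by 2.47. The myosin light chain kinase gene Mylk and the light chain gene Myl9 fell by 1.79 and 1.08, both named outside the rule after their values were seen. In the other direction, the calponin gene of non-muscle cells, Cnn2, was at 116.58, 105.42 and 95.05 TPM in sham libraries and at 268.27, 230.91 and 229.83 TPM in pMx libraries, a rise of 1.19 on the log2 scale (SE 0.09; limma, adjusted p = 5.93e-05). Smtn, which encodes smoothelin, rose by 0.95. Cnn2 rose and Cnn1 fell, and the libraries of neither gene overlapped between sham and pMx.

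The actin family also divided. Actg2, the gamma-actin of visceral smooth muscle, went from 134.6, 117.02 and 154.66 TPM in the sham group to 47.41, 42.74 and 59.8 TPM in the pMx group (log2 fold change -1.42, SE 0.23; limma, adjusted p = 0.00168). The cytoplasmic actins rose, Actb by 0.53 on the log2 scale (SE 0.13; adjusted p = 0.0125) and Actg1 by 0.48 (SE 0.10; adjusted p = 0.00725). The striated muscle actins Acta1 and Actc1 varied too widely between libraries for a direction, with log2 fold changes of -0.34 (SE 2.63) and 0.13 (SE 1.71). The actins are close paralogs, and how the counting treated reads that match several of them is not given in the sources used here, so the split between them is uncertain.

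Among 14 regulators and targets of SRF and myocardin, 3 fell and 1 rose from sham to pMx, beside 18.9% and 17.7% of all tested genes. The median log2 fold change was -0.02. Without intact replicate 3 in the fit, 7 of the 14 passed. Myocd, which encodes myocardin, was low throughout, at 3.72, 4.31 and 3.23 TPM in the intact group, 2.27, 2.57 and 2.47 TPM in sham libraries and 0.63, 0.53 and 0.74 TPM in the pMx group. The 3 groups did not overlap, and Myocd fell by 1.07 from sham to pMx (SE 0.10; limma, adjusted p = 1.43e-04). Klf4, a zinc-finger factor that represses contractile genes, fell by 0.99, from a mean of 122 to 60.9 TPM. Gata6, a factor of vascular smooth muscle, fell by 0.98, from a mean of 2.66 to 0.857 TPM. Fhl2, a LIM-domain cofactor, rose by 0.80. The scale of log2(TPM + 1) understates the falls of the low genes Myocd and Gata6, which were 3.85-fold and 3.11-fold by mean TPM. Srf itself had a log2 fold change of 0.01 (adjusted p = 0.94), with means of 24.6 and 24.8 TPM, and was named here after its value was seen.

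Rgs5 encodes a regulator of G-protein signalling and is among the most used pericyte markers. It lay at 837.62, 777.97 and 681.03 TPM in the intact group, at 607.03, 645.11 and 595.72 TPM in sham libraries and at 673.03, 575.44 and 710.24 TPM in pMx libraries. The sham and pMx libraries overlapped, with a log2 fold change of 0.08 (95% interval -0.15 to 0.31; limma, adjusted p = 0.597). The ratio of Acta2 to Rgs5 was accordingly 2.71-fold lower in pMx than in sham, with no overlap (exact permutation p = 0.1, adjusted 0.142).

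Pdgfrb encodes the beta receptor for platelet-derived growth factor, found on pericytes and on fibroblasts. It measured 82.08, 94.17 and 54.23 TPM in the intact group, 111.72, 121.24 and 90.98 TPM in sham libraries and 191.7, 203.66 and 186.72 TPM in the pMx group. All pMx libraries lay above all sham libraries, while intact and sham overlapped. Pdgfrb rose 1.8-fold from sham to pMx (log2 fold change 0.85, SE 0.19; limma, adjusted p = 0.00825), and its ratio to Rgs5 was 1.71-fold higher, again without overlap (exact permutation p = 0.1, adjusted 0.142).

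The remaining mural markers differed little between sham and pMx. Notch3, the Notch receptor of vascular smooth muscle and pericytes, was at 131.57, 157.29 and 92.16 TPM in the intact group, 87.32, 89.6 and 84.15 TPM in sham libraries and 70.61, 76.6 and 88.21 TPM in the pMx group. Its sham and pMx libraries overlapped (log2 fold change -0.15, 95% interval -0.55 to 0.24; limma, adjusted p = 0.539). Cspg4, which encodes the NG2 proteoglycan of pericytes, lay at 37.69, 43.68 and 28.56 TPM, then 37.99, 30.87 and 29.96 TPM, then 39.64, 44.59 and 42.29 TPM in the intact, sham and pMx groups. All pMx values of Cspg4 were above all sham values, but the difference did not pass the test (log2 fold change 0.35, SE 0.15; limma, adjusted p = 0.102). It passed in limma without intact replicate 3 (adjusted p = 0.0229), with median-of-ratios rescaling (0.0464) and with the sham and pMx libraries alone (0.0259). Mcam, the cell adhesion molecule CD146 of mural and endothelial cells, measured 152.35, 178.02 and 102.65 TPM, then 139.3, 146.2 and 129.73 TPM, then 147.05, 152.57 and 176.34 TPM in the same order. Its pMx values were also all above its sham values, at a log2 fold change of 0.19 (95% interval -0.21 to 0.60; limma, adjusted p = 0.444). Groups that did not overlap were frequent in this comparison: 27.0% of all tested genes had every pMx library above every sham library and 29.0% every pMx library below, beside 3 and 4 of the 10 genes.

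The markers were set against Pecam1, the adhesion molecule CD31 of the vessel lining. Pecam1 averaged 184 TPM in sham libraries and 164 TPM in the pMx group, with a log2 fold change of -0.17 (SE 0.14; limma, adjusted p = 0.379). The ratio of Rgs5 to Pecam1 was 1.19-fold higher in pMx than in sham, and that of Myh11 to Pecam1 was 6.57-fold lower, each without overlap (exact permutation p = 0.1, adjusted 0.142). Of 16 endothelial genes 15 were tested, since Robo4 was not in the table used here. Their sum ranged from 1720 to 2245 TPM in the intact group, 1484 to 1571 TPM in sham libraries and 1230 to 1532 TPM in the pMx group. From sham to pMx 5 fell, beside 18.9% of all tested genes. They were led by Cldn5, a tight junction protein (log2 fold change -1.42), Emcn, a sialomucin of capillaries and veins (-0.87), and Vwf, von Willebrand factor (-0.69). None rose at the adjusted p in limma, beside 17.7% of all tested genes, and 3 were higher at an unadjusted p below 0.05. The number past the adjusted p was 3 when sham replicate 1, 2 or 3 or pMx replicate 1 or 2 was left out, and 8 without intact replicate 3 or with median-of-ratios rescaling.

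A list of 21 further pericyte and mural genes was mixed, with a median log2 fold change of -0.46 from sham to pMx. Of these genes 10 fell and 3 rose, beside 18.9% and 17.7% of all tested genes, and 8 did not pass. Those that rose were led by Ndufa4l2 and Cox4i2, subunits linked to the respiratory chain that are expressed in pericytes. Ndufa4l2 lay at 74.18, 83.6 and 64.53 TPM in sham libraries and at 283.62, 229.53 and 290.48 TPM in pMx libraries (log2 fold change 1.84, SE 0.16; limma, adjusted p = 7.92e-05). Cox4i2 rose by 1.72, and Foxs1, a forkhead factor of mural cells, by 0.57. In the other direction, Aoc3, an amine oxidase of smooth muscle and adipocytes, was at 347.52, 338.54 and 352.36 TPM in sham libraries and at 109.58, 125.1 and 127.14 TPM in pMx libraries. It fell by 1.52 (SE 0.20; limma, adjusted p = 6.58e-04), and Art3 and the metalloreductase gene Steap4 fell by 1.84 and 1.48.

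Among 16 ligands, partners and targets of the PDGF and Notch pathways, 2 rose and 3 fell from sham to pMx, with a median log2 fold change of 0.12. That is near the shares over all tested genes, of which 17.7% rose and 18.9% fell. Notch2 and the Notch target Hey1 each rose by 0.58, while the Notch target Hes1 fell by 1.01, the ligand gene Dll1 by 0.60 and the ligand gene Pdgfd by 0.42. Pdgfb, whose product is the main ligand of the receptor encoded by Pdgfrb, averaged 46.4 TPM in sham libraries and 50.8 TPM in the pMx group (log2 fold change 0.12, SE 0.14; limma, adjusted p = 0.555), and was named after its value was seen. The 5 calls became 2 without sham replicate 3 or pMx replicate 2 and 3 without pMx replicate 1 or 3.

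Des encodes desmin, the intermediate filament of smooth, cardiac and skeletal muscle that some pericytes also carry. It lay at 144.7, 194.9 and 724.32 TPM in the intact group, at 145.41, 320.87 and 118.13 TPM in sham libraries and at 237.08, 273.3 and 108.74 TPM in pMx libraries. The groups overlapped in every comparison, and from sham to pMx its log2 fold change was 0.12 with a 95% interval of -1.35 to 1.59 (limma, adjusted p = 0.914). Des followed skeletal muscle genes from library to library: in 3 of 3 groups the order of the libraries by Des was that by the sum of the 20 skeletal muscle genes. That sum was 88.4, 324 and 57397 TPM in the intact group, 1835, 4008 and 345 TPM in sham libraries and 3513, 4092 and 116 TPM in the pMx group. In the library with least skeletal muscle RNA of each group, Des was at 144.7, 118.13 and 108.74 TPM. The 5 genes of muscle progenitors summed to at most 17.7 TPM in any library. None of the 20 skeletal muscle genes or the 5 progenitor genes passed the limma test in any of the 3 comparisons, and 0 had an unadjusted p below 0.05. The skeletal muscle genes varied widely between libraries (Acta1 had an SE of 2.63 on the log2 scale), so only very large differences could have passed. The test therefore does not show that the groups held equal skeletal muscle RNA. With the log2 sum of the skeletal muscle list as a covariate, Des was lower in the sham than in the intact group by 0.68 on the log2 scale (SE 0.18; adjusted p = 0.0375) and lower in the pMx than in the intact group by 0.51 (SE 0.18; adjusted p = 0.0441). Without the covariate the corresponding adjusted p-values were 0.574 and 0.545. Intact replicate 3 lay far beyond all other libraries in that covariate. With this library left out and no covariate, the log2 fold changes of Des were 0.07 and 0.19, so the falls seen with the covariate are uncertain. From sham to pMx the same 5 genes passed the adjusted p with the covariate as without it.

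**Figure D4:**
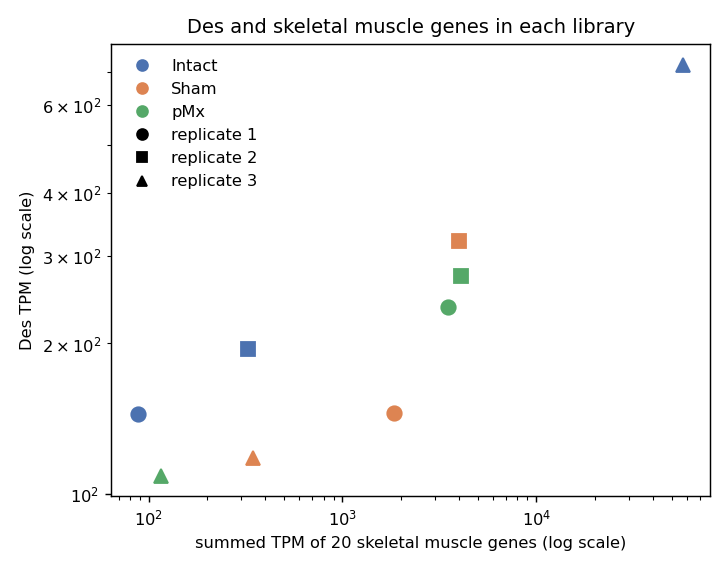
Des (vertical axis, TPM, log scale) against the summed TPM of 20 skeletal muscle genes (horizontal axis, log scale) in each of the 9 libraries, coloured by group with the replicate as marker shape. Within each group the libraries have the same order on both axes, and intact replicate 3 lies alone at the top right with 57397 TPM of skeletal muscle genes.

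Genes of activated fibroblasts and myofibroblasts moved opposite to the contractile markers. Of 19 such genes without the 10 markers, 14 rose and 1 fell from sham to pMx, beside 17.7% and 18.9% of all tested genes. Their median log2 fold change was 0.97. From intact to sham 8 rose and none fell, and 2 were lower at an unadjusted p below 0.05. All 8 rises met both the adjusted p and the fold threshold, beside 1.96% of all tested genes in either direction. The 19 genes summed to 9074 to 12993 TPM in intact, 18350 to 22143 TPM in sham and 44541 to 50318 TPM in pMx libraries. Most of it came from the collagen genes Col1a1 and Col3a1 and the fibronectin gene Fn1, named outside the rule after their values were seen. Their means were 1516, 3739 and 4451 TPM in the intact group and 15669, 17807 and 5165 TPM in the pMx group. Lrrc15, a membrane protein of activated fibroblasts, was at 1.05, 0.92 and 0.75 TPM in the intact group, 31.27, 43.85 and 19.65 TPM in sham libraries and 245.89, 275.7 and 226.25 TPM in the pMx group. The groups lay far apart, with a log2 fold change of 3.01 from sham to pMx (SE 0.24; limma, adjusted p = 6.11e-05) and of 4.03 from intact to sham (SE 0.24; adjusted p = 2.47e-04). Postn, which encodes the matrix protein periostin, rose from 321 ± 93.7 TPM (SD, n = 3) in the intact group to 1141 ± 79.4 TPM in sham libraries and 3664 ± 311 TPM in the pMx group. The matrix protein gene Tnc and the collagen-binding integrin gene Itga11 rose by 2.96 and 2.51 from sham to pMx. Fap, a protease of activated fibroblasts, fell by 1.02. Acta2, the marker most used for myofibroblasts, was thus lowest in the group in which this list was highest.

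**Figure D5:**
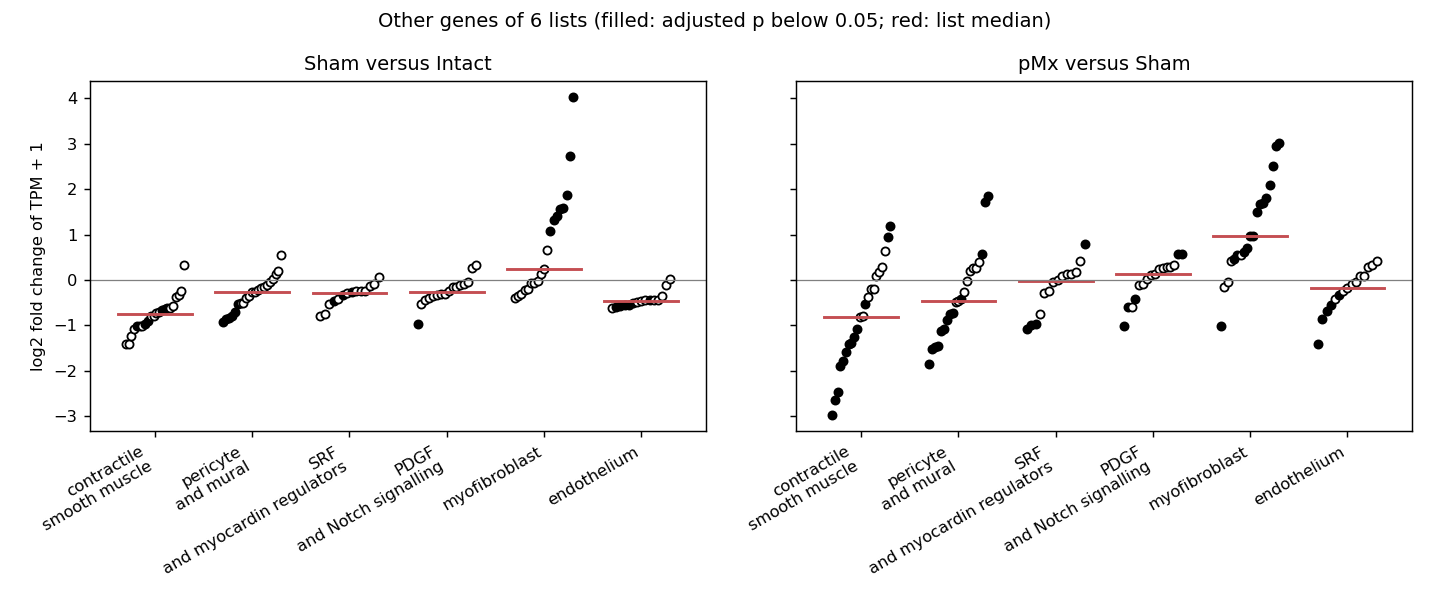
Log2 fold changes of TPM + 1 (vertical axis) of the genes of 6 lists, without the 10 markers, for sham against intact and pMx against sham; each point is a gene, filled where the adjusted p was below 0.05, and red lines are list medians. From sham to pMx the median of the contractile list was -0.81 and that of the myofibroblast list 0.97.

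Markers of other tissues moved with the contractile genes from sham to pMx. Of 8 adipocyte genes all 8 fell, beside 18.9% of all tested genes, with a median log2 fold change of -3.58. They were led by the adipokine gene Adipoq at -7.36, and their sum ranged from 3451 to 7346 TPM in the intact group, 4534 to 4884 TPM in sham libraries and 346 to 529 TPM in the pMx group. Of 10 Schwann cell genes 9 fell, beside the same share of all tested genes, with a median log2 fold change of -1.72. Their sum ranged from 586 to 890 TPM in the intact group, 657 to 800 TPM in sham libraries and 297 to 313 TPM in the pMx group. No gene of either list was at 0 in all libraries. The part of fat and nerve in the fall of the contractile genes was not tested.

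Sham surgery was compared with no surgery to see what opening the joint alone changed, with the same sham libraries as above. None of the 10 genes met both the adjusted p and the fold threshold, which 1.96% of all tested genes met, while 7 of the 10 had an unadjusted p below 0.05, beside 28.7% of all tested genes. At the adjusted p alone Acta2 and Myh11 were lower in the sham group, beside 5.97% of all tested genes that were lower. Acta2 was 1.71-fold lower (log2 fold change -0.73, SE 0.20; limma, adjusted p = 0.0464) and Myh11 1.98-fold lower (-0.94, SE 0.22; adjusted p = 0.0291). Tagln and Cnn1 had log2 fold changes of -0.60 and -0.75 with adjusted p-values of 0.0932 and 0.0828. All sham libraries lay below all intact libraries for 6 genes (Acta2, Tagln, Myh11, Cnn1, Rgs5 and Notch3), beside 16.4% of all tested genes. Among the mural genes Rgs5 was at -0.31 (adjusted p = 0.0854), Notch3 at -0.51 (0.0922), Pdgfrb at 0.51 (0.114), Cspg4 at -0.14 (0.607) and Mcam at -0.03 (0.946), and Des was at -0.63 (0.574). In limma Rgs5 passed with the skeletal muscle list left out and the rest rescaled (adjusted p = 0.0396) and with the muscle covariate (0.0332). Notch3 passed with the covariate (0.0225) and Pdgfrb with median-of-ratios rescaling (0.0492).

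The calls of Acta2 and Myh11 depended on single libraries. Without intact replicate 3, the library rich in skeletal muscle RNA, 4 genes passed the adjusted p (Acta2, Myh11, Rgs5 and Notch3). Without intact replicate 1 there were 3, adding Cnn1. Only Myh11 passed without intact replicate 2, sham replicate 3 or any of the pMx libraries, and no gene passed without sham replicate 1 or sham replicate 2. Myh11 also crossed the fold threshold without intact replicate 1, intact replicate 3 or sham replicate 3. In the list of 22 further contractile genes 7 were lower and none higher in the sham group (16 and 1 at an unadjusted p below 0.05), with a median of -0.76. Of all tested genes 5.97% were lower at the adjusted p. The 7 were led by Synpo2 at -1.02, the integrin gene Itga8 at -1.02 and the intermediate filament gene Synm at -0.96. Synpo2 and Synm were highest in intact replicate 3, as was Tpm1 of this list (6088.7 TPM, against 538.42 and 784.87 TPM in intact replicates 1 and 2), while Itga8 was lowest there. The part of skeletal muscle RNA in this median was not tested. The 7 became 11 without intact replicate 1, 3 without intact replicate 2 and 2 without sham replicate 1 or 2. Of the 21 pericyte and mural genes 6 were lower, beside 5.97% of all tested genes, and 11 passed without intact replicate 3. The 6 were led by Rgs4, Vtn and Lamc3 at -0.93, -0.85 and -0.83. The within-library ratios of the contractile genes shifted little between intact and sham: Acta2 to Myh11 was 1.16-fold higher in sham, Tagln to Myh11 1.27-fold and Cnn1 to Myh11 1.14-fold (exact permutation p = 0.1 for each, adjusted 0.142). The ratio of Rgs5 to Pecam1 overlapped between the groups (exact permutation p = 0.8).

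The pMx group was also compared with the intact group, which shares its pMx libraries with the comparison against sham. Here 5 of the 10 genes met both thresholds, beside 14.3% of all tested genes, and 6 passed the adjusted p, beside 50.6%. Myh11 was 14.6-fold lower in the pMx group (log2 fold change -3.79, SE 0.22; limma, adjusted p = 5.00e-06) and Cnn1 9.07-fold lower (-3.06, SE 0.24; adjusted p = 1.95e-05). Acta2 was 4.39-fold lower (adjusted p = 4.79e-05), Tagln 2.39-fold lower (adjusted p = 0.00126) and Notch3 1.62-fold lower (adjusted p = 0.0122). Pdgfrb was 2.53-fold higher (log2 fold change 1.36, SE 0.19; limma, adjusted p = 4.15e-04). Rgs5 was at -0.23 (adjusted p = 0.094), Cspg4 at 0.22 (0.266) and Mcam at 0.17 (0.469). In limma Rgs5 passed without intact replicate 3, at -0.31 and an adjusted p of 0.0227. It also passed with the skeletal muscle list left out and the rest rescaled (-0.25, adjusted p = 0.0419) and with the muscle covariate (-0.23, adjusted p = 0.0374). In the list of 22 further contractile genes 15 were lower and 2 higher, in that of 21 pericyte and mural genes 14 were lower and 2 higher, and in the myofibroblast list of 19 genes 1 was lower and 13 were higher.

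Genes whose profile over the 9 libraries was most like that of a marker were found by the root mean square difference of log2(TPM + 1) values, each centred on its own mean, among 10711 genes with a mean of at least 5 TPM. The nearest to Acta2 were Kank1, a regulator of the actin cytoskeleton, at 0.09, RGD1564664 at 0.11 and Actg2 at 0.12. Kank1 lay at 57.36, 86.22 and 52.73 TPM in the intact group, 36.95, 36.81 and 43.13 TPM in sham libraries and 16.14, 16 and 16.67 TPM in the pMx group. Nearest to Myh11 were Pln at 0.15, Mal, a membrane proteolipid, at 0.18, and the sodium channel gene Scn7a at 0.20. Cnn1 came in place 35 for Myh11, at 0.33, and Acta2 in place 245, at 0.77. Scn7a, which is known from Schwann cells, went from 6.22, 4.9 and 6.38 TPM in the sham group to 0.04, 0.14 and 0.17 TPM in the pMx group. Nearest to Rgs5 were Lrrc58 at 0.04, Dlg1, which encodes a scaffold protein, at 0.06 and Rapgef2 at 0.06. Their log2 fold changes from sham to pMx were 0.04, 0.08 and 0.04. Nearest to Des were Camk2b at 0.15, the muscle caveolin gene Cav3 at 0.28 and Sema4d at 0.28, and each of these had its highest value in intact replicate 3.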

How the data were processed

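Poly(A) RNA from 9 tissue samples was sequenced on a BGISEQ-500 instrument from dUTP-marked libraries. The authors deposited TPM values (scaled by transcript length, rounded to 2 decimals, each library summing to 1000000). The submitters' processing notes name HISAT2 2.0.4 and the build mRatBN7.2. The counting tool, the annotation and any filter are not given in the sources used here. Because TPM is a share of a library, a rise in a few genes lowers the others.

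Groups were taken from the sample titles. Genes with a TPM above 0 in 3 or more libraries were kept (16512). Their deposited TPM values were put on the log2(TPM + 1) scale and fitted with limma 3.58.1 (R 4.3.3; lmFit, contrasts.fit and trended eBayes), using every library, 1 mean per group, no block and Benjamini-Hochberg adjustment in each comparison. Fold changes on this scale understate those of low genes. The fit was tested on simulated data. Ratios within a library were compared with two-sided exact permutation tests in SciPy 1.17.1. Promoter windows came from a RefSeq table (GRCr8) by gene identifier, figures from Matplotlib 3.10.9.

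The genes named are the 10 markers, from each list and comparison up to 3 genes with the largest rise and 3 with the largest fall among those past the adjusted p, the actin paralogs, Pecam1, and the 3 genes nearest in profile to Acta2, Myh11, Rgs5 and Des. Genes outside this rule are marked as such. Not every gene named by this rule is reported. The markers and lists were chosen with earlier results of these data known. Alternatives were other pseudocounts (0.1, 0.01), filters, scalings, moderation settings, a block, a muscle covariate, a stricter threshold and leaving out each library.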

Additional observations from a re-analysis of the deposited data

How the results depend on the processing

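Limits: 3 libraries a group and an unknown depth set the precision, and the libraries of the pMx group are another tissue than those of the sham group. From pMx against sham the count of markers called stayed at 3 (Acta2, Myh11 and Cnn1 in the main fit) under all 13 other settings and in all 9 fits that left out a library, and the count called from pMx against intact was 5 under the 13 settings and 4 to 5 with a library left out. The Tagln call from sham to pMx was lost without a filter (adjusted p = 0.0507), with quantile normalization (0.0654) and with the replicate block (0.0843). Of 390 recomputed fold changes of the markers under other settings 367 kept their direction and side of the threshold, 13 lost the call and 10 gained it. With a library left out, 240 of 270 did, 15 lost it, 5 gained it and 10 turned in sign.

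Sham against intact was the least stable comparison. The number of markers past the adjusted p, 2 in the main fit, was 1 without a filter, 1 with quantile normalization, 0 in the fit of the 6 libraries of the comparison, 5 with the skeletal muscle covariate and 0 at an adjusted p below 0.01. With a library left out it ranged from 0 to 4, the number also past the fold threshold from 0 to 1, and the genes of the 11 other lists past the adjusted p from 17 to 58, beside 35 in the main fit. The cause of these shifts was not tested.

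Same-numbered libraries did not deviate together in all comparisons: the correlations across genes of their deviations from the group means were 0.0346, 0.368 and 0.485 for pMx and sham, 0.00161, -0.399 and -0.493 for sham and intact, and -0.378, -0.439 and -0.664 for pMx and intact. All were positive for pMx and sham, 1 of them under 0.1, and the numbers were not taken as pairs. With the replicate block, 0 markers passed the adjusted p in sham against intact, where Acta2 came to an adjusted p of 0.087 and Myh11 to 0.0623. Beside the loss of Tagln from sham to pMx, the block changed no other call of the markers. It took the genes past the adjusted p in sham against intact from 7 to 4 in the contractile list, from 6 to 3 in the endothelium list and from 3 to 1 in the SRF and myocardin list.

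Signs turned with a library left out for Des and Mcam. From intact to sham, Des ranged from -1.08 to 0.07 (the latter without intact replicate 3) and Mcam from -0.25 to 0.14, with 0.03 and 0.02 without intact replicate 1 and sham replicate 3. From sham to pMx, Des ranged from -0.17 to 0.55, with -0.02, -0.03 and -0.14 without sham replicate 1, pMx replicate 1 and pMx replicate 2. From intact to pMx, Des ranged from -0.97 to 0.19 and Mcam from -0.06 to 0.34. Among the ratios, with a library left out, the log2 difference of Rgs5/Pecam1 in sham against intact ranged from -0.02 to 0.11 and that of Des/Acta2 from -0.40 to 0.95. The difference of Des/Acta1 ranged from -3.37 to 0.54 in sham against intact, -1.03 to 1.32 in pMx against sham and -2.89 to 1.02 in pMx against intact.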

Other observations

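Among 8 macrophage genes, 4 were higher and none lower in the sham than in the intact group. Of these, 1 also met the fold threshold, beside 1.96% of all tested genes in either direction. The median log2 fold change of the 8 was 0.62, beside -0.02 over all tested genes. The rises were led by the lysozyme gene Lyz2 (log2 fold change 1.46), the lysosomal marker Cd68 (0.94) and Adgre1, which encodes F4/80 (0.75). The 8 genes summed to 2569 to 4390 TPM in intact, 6874 to 7633 TPM in sham and 7788 to 8099 TPM in pMx libraries. Lyz2 made up most of that sum, with means of 2144, 5729 and 6654 TPM in the intact, sham and pMx groups. From sham to pMx, Cd68 rose by 0.47, while the scavenger receptor gene Cd163 fell by 2.24 and the complement gene C1qb by 0.67. Of all tested genes 17.7% rose and 18.9% fell at the adjusted p in that comparison. The 4 calls of sham against intact became 2 without intact replicate 2 or without any of the sham and pMx libraries, and the 3 calls of pMx against sham became 1 without sham replicate 1, sham replicate 3 or pMx replicate 3.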
